A study of Mus musculus with 18 samples.

Results

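The 8 genes described here encode collagens that build beaded filaments, networks or the surface of fibrils: Col6a1, Col6a2, Col6a3, Col8a1, Col8a2, Col12a1, Col14a1 and Col16a1. They were taken by gene name from 35560 genes present in both deposited count tables, and all 8 had enough counts to be among the 14623 genes tested. Bulk RNA was sequenced from the hearts of wild-type male C57BL/6 mice, whose age is not given, and every mouse received isoproterenol (ISO), a beta-adrenergic agonist that stresses the heart. ISO in PBS was injected under the skin daily for 21 days, at a dose of 2.5 mg/kg/day. Mice of the ISO+100 nm PS group also received polystyrene (PS) particles of 100 nm by daily gavage at 50 mg/kg/day for the same 21 days. Mice of the ISO+1 µm PS group received 1 µm particles at the same dose, and mice of the ISO group received water by gavage. Each group held 6 libraries, and no group was without ISO. The design asks what oral PS adds in the stressed heart, with the sequencing batch taken into account.

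Total counts per library ran from 14032257 to 22600570. Batch 1 (one sequencing provider) held 5 libraries of ISO+100 nm PS, 4 of ISO+1 µm PS and 3 of ISO, and batch 2 (the other provider) held 1 of ISO+100 nm PS, 2 of ISO+1 µm PS and 3 of ISO. ISO replicate 2 stood apart. Its counts covered 13152 genes, while the remaining ISO libraries covered 16562 to 17913, and it held the lowest ISO level of 7 of the 8 collagens. Mitochondrial rRNA took 4.81% of the counts in ISO replicate 2 and 2.06% in ISO replicate 1, against 0.206% to 1.44% in the other 16 libraries. The part of RNA quality in the collagen results was not tested. Values without 1 or both of these libraries are given for some of the calls that changed, not for all. Markers of cardiac myocytes were present in every library, at a summed level of 28814 to 63321 in ISO+100 nm PS, 32292 to 84491 in ISO+1 µm PS and 14076 to 72451 in ISO hearts, in CPM, the read count per gene scaled to the size of the library. The labels number the mice of each group, and p-values measure the spread between these libraries. In bulk tissue, more cells of a type and more RNA per cell cannot be told apart.

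Collagen VI is assembled inside the cell from the products of Col6a1, Col6a2 and Col6a3 and forms beaded microfibrils next to basement membranes and around muscle fibres. Collagen VIII, made from Col8a1 and Col8a2, is a short-chain collagen that forms lattices beneath endothelium, as in the Descemet membrane of the eye and in remodelling vessels. Collagens XII, XIV and XVI (Col12a1, Col14a1 and Col16a1) belong to the fibril-associated collagens with interrupted triple helices (FACIT), which sit on or beside collagen fibrils and link them to other matrix. In the heart these genes are transcribed mainly by fibroblasts and other mesenchymal cells.

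Col6a1 and Col6a2 lie next to each other on chromosome 10, Col8a2 and Col16a1 are both on chromosome 4, and the others are on chromosomes 1, 16, 9 and 15 for Col6a3, Col8a1, Col12a1 and Col14a1. RefSeq promoter windows (build GRCm38.p6, 250 bases before and 50 bases after an annotated start) were found for 6 of the 8 genes. The windows of the collagen VI chains and of the collagen VIII chains are shown because the chains of each family are assembled together and their RNAs are compared as ratios. Capitals mark matches, on either strand, to 5 short motifs: the GC box (GGGCGG), the Smad box (CAGAC), the AP-1 motif (TGANTCA), the CCAAT box (CCAAT) and the TATA box (TATAAA). A match on the other strand appears as its reverse complement. Adjacent GC boxes can overlap. The window of Col6a1 is at chr10:76725995-76726294, minus strand, and the Col6a2 window shown, 1 of 2 listed, is at chr10:76623355-76623654, minus strand. The Col6a3 window is at chr1:90843922-90844221, minus strand. The Col8a1 window is at chr16:57754688-57754987, minus strand, and the Col8a2 window is at chr4:126286544-126286843, plus strand.
Col6a1: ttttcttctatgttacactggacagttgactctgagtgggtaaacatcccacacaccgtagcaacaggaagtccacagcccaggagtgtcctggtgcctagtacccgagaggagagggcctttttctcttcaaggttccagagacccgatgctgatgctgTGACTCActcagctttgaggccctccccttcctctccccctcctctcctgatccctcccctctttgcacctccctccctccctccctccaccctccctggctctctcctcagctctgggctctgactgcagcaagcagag
Col6a2: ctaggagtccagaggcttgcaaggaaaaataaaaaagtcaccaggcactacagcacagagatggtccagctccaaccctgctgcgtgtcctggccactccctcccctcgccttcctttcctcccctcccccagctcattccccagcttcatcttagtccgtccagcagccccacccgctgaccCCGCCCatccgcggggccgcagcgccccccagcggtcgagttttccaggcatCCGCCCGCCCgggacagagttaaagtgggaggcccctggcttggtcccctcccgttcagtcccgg
Col6a3: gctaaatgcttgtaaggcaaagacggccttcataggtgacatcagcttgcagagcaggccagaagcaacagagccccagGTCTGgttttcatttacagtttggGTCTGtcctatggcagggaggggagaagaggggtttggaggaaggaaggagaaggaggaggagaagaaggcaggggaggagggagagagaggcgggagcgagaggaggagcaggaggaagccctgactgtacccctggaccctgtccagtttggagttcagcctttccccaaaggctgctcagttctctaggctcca
Col8a1: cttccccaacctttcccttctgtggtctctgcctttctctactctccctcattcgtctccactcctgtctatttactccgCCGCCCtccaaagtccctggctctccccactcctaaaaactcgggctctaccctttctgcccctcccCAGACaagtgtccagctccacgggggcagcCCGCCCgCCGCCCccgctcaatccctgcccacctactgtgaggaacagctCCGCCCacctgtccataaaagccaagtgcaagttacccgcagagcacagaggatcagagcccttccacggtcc
Col8a2: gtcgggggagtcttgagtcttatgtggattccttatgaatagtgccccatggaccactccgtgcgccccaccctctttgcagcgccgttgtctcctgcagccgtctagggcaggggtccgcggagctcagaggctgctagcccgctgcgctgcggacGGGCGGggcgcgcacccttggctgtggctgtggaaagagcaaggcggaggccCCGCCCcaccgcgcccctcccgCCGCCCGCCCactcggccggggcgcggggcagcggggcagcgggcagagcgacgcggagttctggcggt

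These windows do not hold the same motifs. With bases counted from -1 just before the start, the window of Col6a1 held an AP-1 match at -90 and none of the other 4 motifs. The Col6a2 window shown held GC boxes at -67, -15 and -11, and the Col6a2 window not shown held a GC box at -175 and a Smad box at -35. That of Col6a3 held Smad boxes at -171 and -147. Both collagen VIII windows held 4 GC boxes, at -170, -73, -66 and -23 in Col8a1, which also held a Smad box at -103, and at -93, -41, -19 and -15 in Col8a2. Of the 32851 windows in the table, 35.7% held a GC box, 49.6% a Smad box, 7.81% the AP-1 motif, 37.4% a CCAAT box and 13.6% a TATA box. Among the 7 windows of these collagens, 5 held a GC box, 3 a Smad box, 1 the AP-1 motif, 1 a CCAAT box (Col16a1) and 0 a TATA box.

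Collagen VI was the most abundant of these collagens in every group. Per kilobase of transcript, Col6a1 averaged 49.5 ± 11.9 CPM per kb in ISO+100 nm PS, 44.8 ± 9.39 CPM per kb in ISO+1 µm PS and 24.5 ± 11.1 CPM per kb in ISO hearts (SD, n = 6 each). Col6a2 came next, at 43.3 ± 9.80 CPM per kb in ISO+100 nm PS, 39.5 ± 10.3 in ISO+1 µm PS and 19.9 ± 9.64 in ISO hearts. Col6a1 was above Col6a2 in all 6 libraries of each group, although the ranges of the 2 genes overlapped. The 3 collagen VI genes made up 79.0% ± 5.79 of the summed level per length of the 8 genes in ISO+100 nm PS, 82.1% ± 6.07 in ISO+1 µm PS and 81.2% ± 5.92 in ISO hearts, so this share moved by less than its SD.

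The other 6 collagens were lower per length. Col8a1 came after collagen VI chains Col6a1 and Col6a2 in each group, at 11.9 ± 5.46 CPM per kb in ISO+100 nm PS, 9.45 ± 6.03 in ISO+1 µm PS and 5.48 ± 2.59 in ISO hearts. Col6a3 and Col14a1 followed with overlapping ranges. Col14a1 averaged 8.02 and Col6a3 7.53 CPM per kb in ISO+100 nm PS, where Col14a1 was the higher of the pair in 3 of 6 libraries. Col6a3 was the higher of the pair in 5 of 6 libraries of ISO+1 µm PS, where Col6a3 averaged 7.02 and Col14a1 5.77 CPM per kb, and in 6 of 6 of ISO, where Col6a3 averaged 4.13 and Col14a1 2.72 CPM per kb. Col16a1 came after these, with 4.63 CPM per kb in ISO+100 nm PS, 3.76 in ISO+1 µm PS and 1.63 in ISO hearts. Col8a2 and Col12a1 were lowest, and in ISO hearts their levels of 0.170 and 0.127 CPM per kb differed by less than their SDs.

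**Figure D1:**
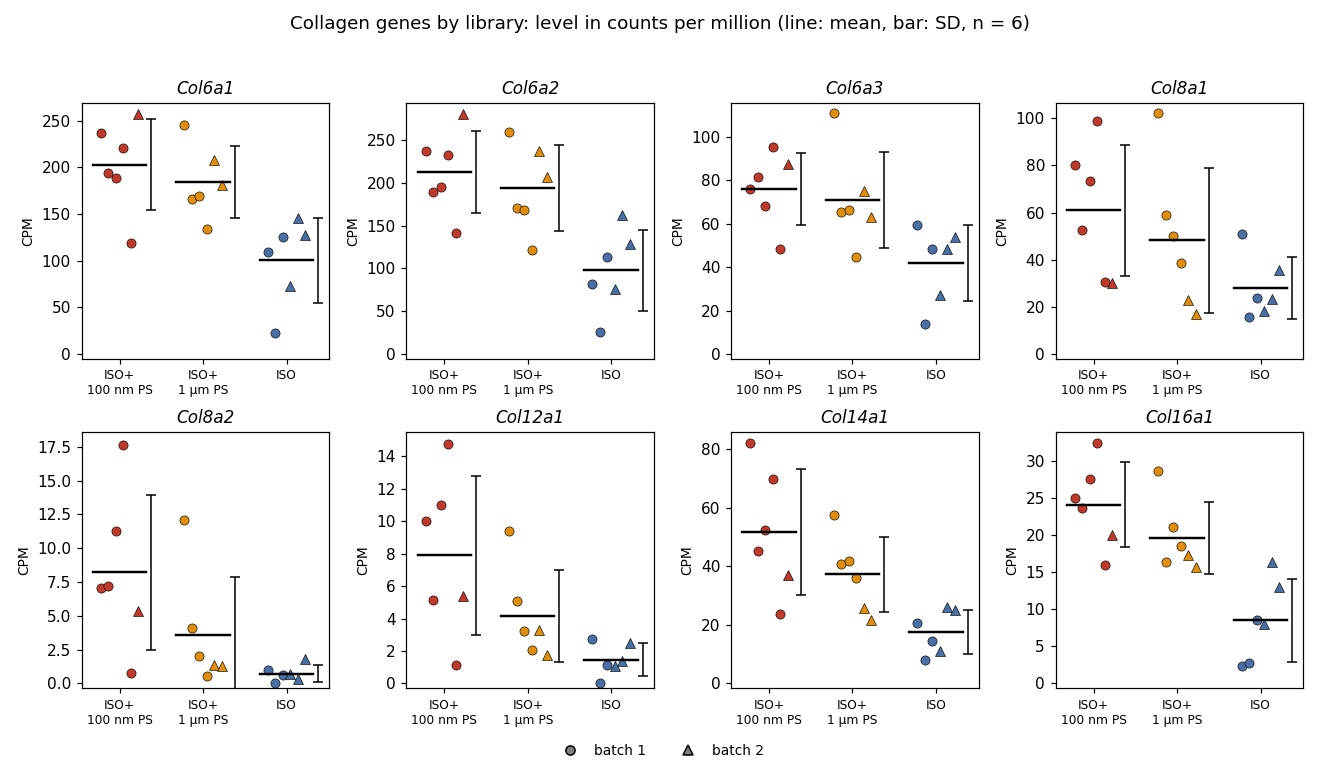
Level of each collagen gene in every library, in CPM on a linear axis from 0 with its own scale per panel, in ISO+100 nm PS, ISO+1 µm PS and ISO hearts. Circles are batch 1 and triangles batch 2, lines are means and bars 1 SD (n = 6, the lower end of 1 bar in Col8a2 lies under 0). Most PS libraries lie above the ISO libraries, and ISO+100 nm PS replicate 5 is the lowest of its group in 7 of 8 panels.

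The collagen VI chains were higher in hearts exposed to PS. Col6a1 ran from 119 to 257 CPM with a median of 207 in ISO+100 nm PS, from 134 to 246 with a median of 175 in ISO+1 µm PS, and from 22.4 to 146 with a median of 117 in ISO hearts. Col6a2 ran from 141 to 281 (median 214) in ISO+100 nm PS, from 122 to 259 (188) in ISO+1 µm PS and from 25.4 to 162 (97.7) in ISO hearts. For each of these genes 5 of 6 libraries of either PS group lay above the whole ISO range, and ISO+100 nm PS replicate 5 and ISO+1 µm PS replicate 4 lay inside it. Col6a3, the chain with the longest globular region, ran lower, at 48.2 to 95.3 CPM (median 78.7) in ISO+100 nm PS, 44.9 to 111 (65.8) in ISO+1 µm PS and 13.7 to 59.3 (48.2) in ISO hearts, again with 5 of 6 libraries of either PS group above the ISO range. Set against the ISO libraries of its own batch, Col6a2 was higher in all 12 PS libraries. It was the only 1 of the 8 collagens of which this was so, while 2.04% of all genes tested met the same condition.

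For 100 nm PS against ISO, the log2 fold change of Col6a1 was 1.12, a rise (SE 0.32, edgeR adjusted p = 0.0365) and that of Col6a2 1.32, also a rise (SE 0.30, edgeR adjusted p = 0.0174). Col6a3 did not pass, with 0.89 (SE 0.30, edgeR adjusted p = 0.0673). For 1 µm PS against ISO, Col6a2 rose by 1.11 (SE 0.29, edgeR adjusted p = 0.0304), while Col6a1 at 0.94 (SE 0.31, edgeR adjusted p = 0.0671) and Col6a3 at 0.78 (SE 0.29, edgeR adjusted p = 0.1) did not pass. When both PS groups were averaged and set against the same ISO libraries, all 3 chains passed, at 1.03 for Col6a1, 1.22 for Col6a2 and 0.83 for Col6a3 (edgeR adjusted p = 0.0202, 0.00699 and 0.038). Without ISO replicate 2, which held the lowest level of each chain, the values for both PS groups were 0.77, 0.97 and 0.60, and Col6a3 no longer passed (edgeR adjusted p = 0.0501). This Col6a3 call was kept in 8 of the 18 fits that left out 1 library. For Col6a1 at 100 nm, 9 of the 18 kept the call.

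Of the collagen VIII chains, Col8a2 passed at 100 nm and for both PS groups, and Col8a1 in neither comparison. Col8a1 ran from 29.9 to 98.7 CPM (median 63.0) in ISO+100 nm PS, from 17.1 to 102 (44.4) in ISO+1 µm PS and from 15.8 to 51.1 (23.7) in ISO hearts, and 4 of 6 libraries of ISO+100 nm PS and 2 of 6 of ISO+1 µm PS lay above the ISO range. Its log2 fold changes of 0.72 (SE 0.38, edgeR adjusted p = 0.218) at 100 nm and 0.45 (SE 0.37, edgeR adjusted p = 0.445) at 1 µm did not pass, nor did that of both PS groups (0.59, SE 0.34, edgeR adjusted p = 0.228). Col8a2 was a low transcript, with 19 to 363 counts in ISO+100 nm PS, 12 to 266 in ISO+1 µm PS and 0 to 26 in ISO libraries. The count of 0 was in ISO replicate 2, where it allows up to 0.183 CPM, counting error alone considered.

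Col8a2 had the largest fitted fold change of the 8 genes, and the widest error. Its levels were 0.779 to 17.7 CPM (median 7.12) in ISO+100 nm PS, 0.579 to 12.1 (1.71) in ISO+1 µm PS and 0 to 1.79 (0.681) in ISO hearts. At 100 nm, 5 of 6 libraries were above the ISO range, and at 1 µm 3 of 6 were. It rose at 100 nm by 3.18 (SE 0.87, edgeR adjusted p = 0.0323) and had 2.01 at 1 µm, which did not pass (SE 0.85, edgeR adjusted p = 0.141). Both PS groups together gave 2.60 (SE 0.81, edgeR adjusted p = 0.0344). This call was kept in 12 of the 18 fits that left out 1 library. It was lost without ISO replicate 2 (2.19, edgeR adjusted p = 0.0626), and ISO+1 µm PS replicate 1, at 12.1 CPM, lay far above the other libraries of its group (0.579 to 4.10 CPM).

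Of the FACIT members, Col16a1, a minor collagen of interstitial matrix, rose at both particle sizes. It ran from 15.9 to 32.4 CPM (median 24.3) in ISO+100 nm PS, from 15.7 to 28.6 (18.0) in ISO+1 µm PS and from 2.37 to 16.4 (8.26) in ISO hearts. It was above the ISO range in 5 of 6 libraries of ISO+100 nm PS and 4 of 6 of ISO+1 µm PS, and its lowest ISO levels, 2.37 and 2.70 CPM, were in replicates 1 and 2. Col16a1 rose by 1.72 (SE 0.40, edgeR adjusted p = 0.0183) at 100 nm, by 1.37 (SE 0.38, edgeR adjusted p = 0.0377) at 1 µm and by 1.54 (SE 0.36, edgeR adjusted p = 0.00922) for both PS groups. Its call for both PS groups was kept in all 18 fits that left out 1 library, which was also so for Col6a1, Col6a2 and Col14a1. At 1 µm, 9 of the 18 kept the call of Col16a1. With ISO replicates 1 and 2 both left out, the Col16a1 value for both PS groups was 0.83 and passed (edgeR adjusted p = 0.0406). The Col16a1 calls at 100 nm (0.97, edgeR adjusted p = 0.0523) and 1 µm (0.70, edgeR adjusted p = 0.1) were then lost. Col14a1 then lost its call for both PS groups (0.89, edgeR adjusted p = 0.111). Those of Col6a1 and Col6a2 were kept (edgeR adjusted p = 0.0375 and 0.0217).

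Col14a1 encodes a FACIT that binds collagen fibrils in interstitial matrix. It ran from 23.6 to 82.2 CPM (median 48.9) in ISO+100 nm PS, from 21.6 to 57.5 (38.4) in ISO+1 µm PS and from 8.11 to 26.2 (17.5) in ISO hearts, with 5 of 6 libraries of ISO+100 nm PS and 4 of 6 of ISO+1 µm PS above the ISO range. It rose at 100 nm by 1.45 (SE 0.36, edgeR adjusted p = 0.0219) and for both PS groups by 1.23 (SE 0.32, edgeR adjusted p = 0.0158), and at 1 µm its 1.00 did not pass (SE 0.34, edgeR adjusted p = 0.0756). Col12a1, a FACIT of tendon and other load-bearing tissue, was the lowest per length, with 0 counts in ISO replicate 2. It ran from 1.15 to 14.7 CPM (median 7.68) in ISO+100 nm PS, from 1.78 to 9.40 (3.25) in ISO+1 µm PS and from 0 to 2.72 (1.26) in ISO hearts. It rose at 100 nm by 2.26 (SE 0.69, edgeR adjusted p = 0.0457), was 1.38 at 1 µm, which did not pass (SE 0.66, edgeR adjusted p = 0.187), and reached 1.82 for both PS groups at an adjusted p close to the limit (SE 0.62, edgeR adjusted p = 0.0498). Of the 18 fits that left out 1 library, 6 kept the call at 100 nm and 4 the call for both PS groups. The latter was lost without ISO replicate 2 (1.44, edgeR adjusted p = 0.0538).

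**Figure D2:**
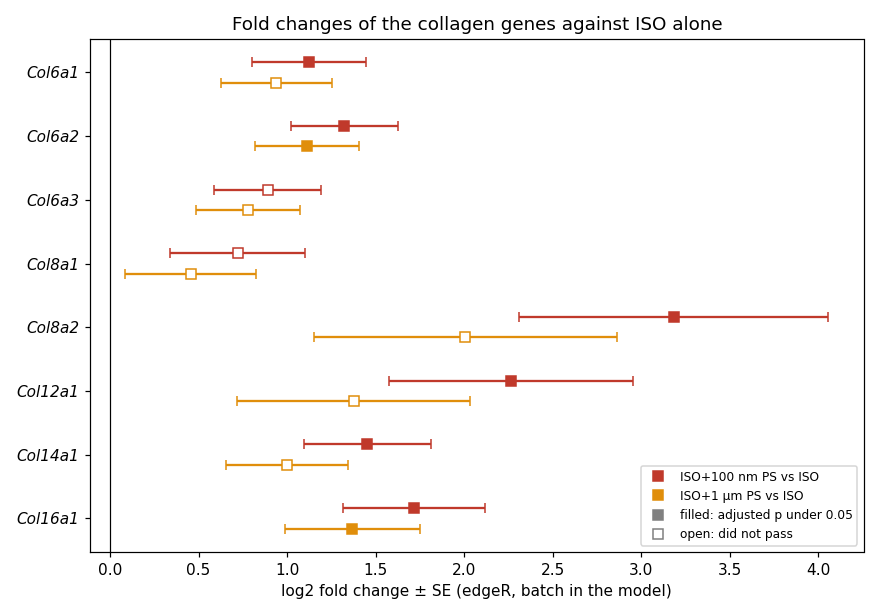
Log2 fold change of each collagen gene in ISO+100 nm PS (red, upper of each pair) and ISO+1 µm PS (orange) against ISO, with bars of 1 SE from the edgeR fit with batch over 18 libraries. Filled squares passed an adjusted p under 0.05. All 16 values are above 0, and Col6a2 and Col16a1 are filled for both sizes.

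Counted over the 8 collagens, 6 rose with 100 nm PS, 2 with 1 µm PS and 7 in the mean of both PS groups, and 0 fell. Over all genes tested, 3.88% were higher at 100 nm, 2.89% at 1 µm and 6.8% for both PS groups. The median log2 fold change of the 8 collagens was 1.39 at 100 nm, 1.06 at 1 µm and 1.22 for both, against -0.023, -0.0021 and -0.014 over all genes. These comparisons share the 6 ISO libraries, so their counts are not separate lines of evidence.

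The counts depended on single libraries and on GC content. At 100 nm the 6 became 1 without ISO+100 nm PS replicate 6, 2 without its replicate 1, and 3 without its replicate 2, 3 or 4 or without ISO replicate 4. The share of all genes called higher at 100 nm was then 0.358%, 1.29%, 1.39%, 1.55%, 2.39% and 2.22%, in that order. At 1 µm the 2 became 0 without ISO replicate 4 or without ISO+1 µm PS replicate 1, 2 or 3, and 1 without ISO replicate 1, ISO+100 nm PS replicate 1, 2 or 3 or ISO+1 µm PS replicate 4. The share at 1 µm was then 1.02%, 0.628%, 1.32%, 0.65%, 3.41%, 1.91%, 1.79%, 1.67% and 1.05%, in that order. For both PS groups the 7 became 4 without ISO replicate 2 or 4 or ISO+100 nm PS replicate 6, with 7.61%, 4.82% and 4.86% of all genes called higher. Calls over the whole table moved too: genes called higher at 100 nm, 567 with all libraries, were 53 without ISO+100 nm PS replicate 6 and 191 without its replicate 1. At 1 µm the 423 became 93 without ISO+1 µm PS replicate 1. Some rose while the collagens called fell: the 423 became 506 without ISO replicate 1. For both PS groups 995 became 1127 without ISO replicate 2. With 1 library left out, the median log2 fold change of the 8 collagens ran from 1.12 to 1.504 at 100 nm, from 0.81 to 1.19 at 1 µm and from 0.97 to 1.35 for both PS groups. Libraries also differed in how their levels moved with GC content. Each level was taken relative to the gene's mean over all libraries of the same batch, so the values compare libraries within a batch. The Spearman correlation across genes was 0.12 to 0.37 in PS libraries and -0.61 to 0.01 in ISO libraries. The transcripts of Col16a1, Col8a2 and Col6a1 have a GC content of 61.4%, 59.1% and 56.7%, above 95.3%, 92.6% and 87.0% of the joined genes. Col6a2 and Col6a3, at 55.2% and 54.5%, are above 82.0% and 79.7%. Col14a1, Col12a1 and Col8a1, at 49.7%, 48.3% and 46.8%, are above 57.2%, 49.8% and 40.7%. After each library was corrected for GC content, 0 of the 8 passed at 100 nm and 0 at 1 µm, where 0.0% and 0.00684% of all genes were called higher. The median of the 8 was then 1.11 at 100 nm and 0.85 at 1 µm, and at 100 nm Col8a2 had 2.67, Col12a1 2.28 and Col14a1 1.37. For both PS groups, with 1.21% of all genes called higher, Col6a2 (0.90), Col14a1 (1.15) and Col16a1 (1.07) still passed (edgeR adjusted p = 0.0267, 0.0253 and 0.0243).

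Particle size was tested directly by setting ISO+1 µm PS against ISO+100 nm PS. All 8 collagens had a lower value at 1 µm, with a median log2 fold change of -0.31 against 0.011 over all genes, and 0 of 8 passed. Of all genes 0.0% were called by edgeR in this comparison, 49 had an unadjusted p under 0.05, and DESeq2 and limma voom also called 0. The number under 0.05 depended on the fit. It was 221 by edgeR without ISO replicates 1 and 2, 282 by edgeR with only the 2 PS groups, and 634 by limma voom. Each of these numbers is under a share of 0.05 of the genes tested, the share that chance alone would give. The lack of calls therefore does not show that the sizes act alike. Col8a2 had the lowest value, at -1.18, with 2 SE either side spanning -2.61 to 0.25. For Col12a1 the value was -0.89 (-2.09 to 0.31) and for Col14a1 -0.45 (-1.09 to 0.19). Collagen VI differed less, at -0.18 for Col6a1 (-0.79 to 0.43), -0.21 for Col6a2 (-0.78 to 0.36) and -0.11 for Col6a3 (-0.69 to 0.47). The intervals reach from a fall of over 1 on the log2 scale for the low transcripts to a small rise. A size effect was thus not detectable at the spread fitted over all 18 libraries, ISO included. The ranges of the PS groups overlapped for every one of the 8 genes.

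The collagen VI genes gave like values in both sequencing batches. In fits to 1 batch alone, both PS groups against ISO gave 1.10 (SE 0.43) in batch 1 and 0.94 (SE 0.30) in batch 2 for Col6a1, 1.35 (SE 0.39) and 1.02 (SE 0.31) for Col6a2, and 0.84 (SE 0.40) and 0.84 (SE 0.28) for Col6a3. The other 5 genes had lower values in batch 2: 2.31 (SE 0.41) in batch 1 and 0.53 (SE 0.28) in batch 2 for Col16a1, 1.77 (SE 0.38) and 0.50 (SE 0.31) for Col14a1, 2.33 and 1.14 for Col12a1, 3.54 and 1.49 for Col8a2, and 1.09 and -0.089 for Col8a1. The difference between batches itself passed for 0 of the 8 and for 0.328% of all genes by edgeR, with an unadjusted p under 0.05 for Col16a1 (a batch-by-PS term of -1.77, SE 0.52, edgeR adjusted p = 0.0915) and Col14a1 (-1.30, SE 0.53, edgeR adjusted p = 0.213). DESeq2 called this term for 1 of the 8 and 6.61% of all genes, and limma voom for 0 of the 8 and 10.9% of all genes. Batch 1 alone called 3 of the 8 higher for both PS groups, with 4.74% of all genes. Batch 2 alone, with 3 PS and 3 ISO libraries, called 0 of the 8 and 0.306% of all genes.

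**Figure D3:**
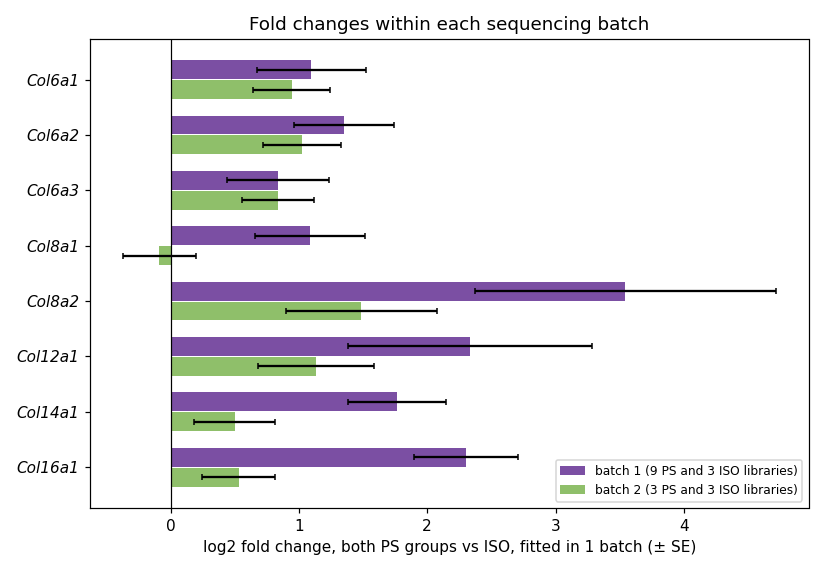
Log2 fold change of both PS groups against ISO for each collagen gene, fitted in batch 1 alone (purple, upper) and batch 2 alone (green). The bars of the collagen VI genes are of like length in both batches, 0.84 and 0.84 for Col6a3, while those of Col16a1 are 2.31 and 0.53. Black lines are 1 SE of the edgeR fit to that batch.

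Ratios between chains were taken within each library, where library scaling enters only through the 0.5 CPM added to each gene. They were not corrected for GC content, and its part in them was not tested. The 4 ratios were computed on levels per length and tested by an exact 2-sided permutation test within batches (12 PS against 6 ISO libraries), with p-values adjusted over the 4. Col8a2 relative to Col8a1 averaged -2.81 ± 0.85 on the log2 scale in ISO+100 nm PS, -3.62 ± 0.77 in ISO+1 µm PS and -4.33 ± 0.53 in ISO hearts (SD, n = 6 each). The mean difference within batches, both PS groups minus ISO, was 1.24 (exact permutation p = 0.00659, adjusted 0.0264), although ISO+100 nm PS replicate 5 and ISO+1 µm PS replicate 3 lay inside the ISO range and ISO+1 µm PS replicate 4 below it. With a pseudocount of 2 CPM in place of 0.5 the difference was 0.54 and no longer passed (adjusted exact p = 0.0715), and without ISO replicate 1 it was 1.16 and did not pass. The transcripts differ in GC content, at 59.1% for Col8a2 and 46.8% for Col8a1. With the GC correction, their edgeR log2 fold changes for both PS groups were 2.08 and 0.66, against 2.60 and 0.59 without it.

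Within collagen VI, Col6a3 relative to Col6a1 was lower in PS hearts. The log2 ratio averaged -2.70 ± 0.18 in ISO+100 nm PS, -2.70 ± 0.15 in ISO+1 µm PS and -2.50 ± 0.34 in ISO hearts, a difference of -0.27 within batches (exact permutation p = 0.0155, adjusted 0.0309). It depended on single ISO libraries: the call was lost without ISO replicate 1 (-0.22), 2 (-0.17) or 6 (-0.25), and with replicates 1 and 2 both left out the difference was -0.056. With the GC correction, the edgeR log2 fold changes for both PS groups were 0.52 for Col6a3 and 0.63 for Col6a1, against 0.83 and 1.03 without it. Col6a2 relative to Col6a1 differed by 0.14 and did not pass (exact permutation p = 0.0573, adjusted 0.0764), and it passed without ISO replicate 2 (0.21) or ISO+1 µm PS replicate 4 (0.15). Col12a1 relative to Col14a1 differed by 0.34 (exact permutation p = 0.253, adjusted 0.253), and by -0.16 with the pseudocount of 2 CPM.

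**Figure D4:**
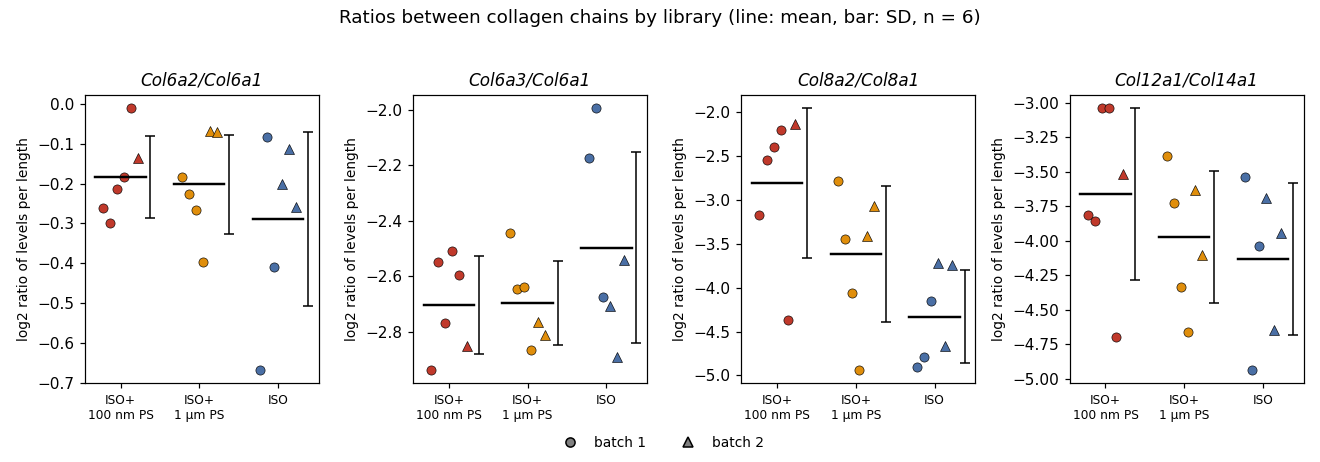
Log2 ratio of the levels per length of 4 pairs of collagen chains in every library, in ISO+100 nm PS, ISO+1 µm PS and ISO hearts, with a vertical scale of its own per panel. Circles are batch 1, triangles batch 2, lines means and bars 1 SD (n = 6). Col8a2 relative to Col8a1 averages -2.81 in ISO+100 nm PS, -3.62 in ISO+1 µm PS and -4.33 in ISO hearts, and the ISO values of Col6a3 relative to Col6a1 are more spread than those of either PS group in its panel, reaching -1.99.

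The 8 genes varied together from library to library. Their summed level ran from 380 to 782 CPM in ISO+100 nm PS, from 396 to 826 CPM in ISO+1 µm PS and from 88.1 to 424 CPM in ISO hearts. ISO+100 nm PS replicate 4 was the highest of its group for 5 genes and ISO+1 µm PS replicate 1 for all 8. Described on batch-centred log2 CPM over 18 libraries that share group and depth differences, the 28 pairs of genes had Pearson correlations of 0.65 (Col8a1 with Col16a1) to 0.98 (Col6a1 with Col6a2). Among the 12 PS libraries alone they were 0.76 to 0.96. Of 10466 other genes with a mean of at least 5 CPM, those most like the mean of the 8 were Col5a2 (0.98), Col3a1 (0.98), Adamts2 (0.98), Col1a2 (0.97), Col1a1 (0.97) and Fbln1 (0.97). Over the 12 PS libraries alone their correlations were 0.96, 0.98, 0.97, 0.98, 0.97 and 0.88 in the same order. Adamts2 encodes a protease that removes the amino-terminal propeptide of fibrillar collagens, and Fbln1 encodes fibulin 1, a matrix glycoprotein.

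RNAs of the fibrillar collagens, on whose fibrils FACIT collagens sit, were higher too. All 6 fibrillar collagen genes listed rose for both PS groups, 5 at 100 nm and 1, Col5a1, at 1 µm, with a median log2 fold change of 1.05 for both PS groups. Over all genes tested, 6.8%, 3.88% and 2.89% were higher in the same order. After the GC correction these shares were 1.21%, 0.0% and 0.00684%. No call at 100 nm in this or the following lists was then kept. Col5a1, a chain of the collagen that starts fibrils, averaged 123 ± 30.3 CPM in ISO+100 nm PS, 105 ± 35.0 CPM in ISO+1 µm PS and 50.1 ± 22.1 CPM in ISO hearts (SD, n = 6 each), a change of 1.24 for both PS groups (SE 0.28, edgeR adjusted p = 0.00814). Col1a1, Col1a2 and Col5a2 changed by 1.64, 1.06 and 1.04 in that comparison. The related chains outside the 8 (other collagen VI, IX, X and FACIT chains, 11 listed) gave fewer values. Of these, 1 was not among the joined genes and 5 were too low to test. Of the 5 tested by edgeR, 0 passed at 100 nm, at 1 µm or for both PS groups (1 at an unadjusted p under 0.05 in each), with a median of 0.88 for both. Col9a2 came nearest, at 0.791 ± 0.314 CPM in the 12 PS hearts and 0.307 ± 0.338 CPM in ISO hearts (1.496, SE 0.60, edgeR adjusted p = 0.0864). Col20a1, Col22a1 and Col9a3 had 0.86, 1.03 and 0.88 and did not pass.

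Genes that fold, modify or process collagen rose in part. Of 18 listed, 9 rose for both PS groups, 8 at 100 nm and 5 at 1 µm, and 0 fell, with a median of 0.42 for both. For all genes tested the shares that rose were 6.8%, 3.88% and 2.89% in that order. Plod3, a lysyl hydroxylase, averaged 58.8 ± 4.63 CPM in the 12 PS hearts and 40.1 ± 5.83 CPM in ISO hearts (0.57, SE 0.11, edgeR adjusted p = 0.0038). Bmp1, the procollagen C-proteinase (0.81), its enhancer Pcolce (1.03) and Serpinh1, the collagen chaperone HSP47 (0.70), rose as well. Among 11 matrix proteins that bind these collagens, 5 rose for both PS groups (Bgn, Tnxb, Hspg2, Fn1 and Tnc), 5 at 100 nm and 2 at 1 µm (Tnxb and Hspg2), and 0 fell. Biglycan (Bgn), a proteoglycan that binds collagen VI, averaged 606 ± 159 CPM in PS hearts and 320 ± 159 CPM in ISO hearts (1.00, SE 0.29, edgeR adjusted p = 0.024). Tenascin X (Tnxb), which binds collagens XII and XIV, had 0.90, the basement membrane proteoglycan Hspg2 0.95 and fibronectin (Fn1) 0.85.

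Of 12 genes for collagen receptors, 3 rose at each size and for both PS groups, and 0 fell. Over all genes tested, 3.88% were higher at 100 nm, 2.89% at 1 µm and 6.8% for both PS groups. Cspg4, the proteoglycan NG2 of pericytes, which binds collagen VI, averaged 55.4 ± 13.3 CPM in PS hearts and 35.5 ± 10.97 CPM in ISO hearts (0.81, SE 0.14, edgeR adjusted p = 0.00242). The kinase receptor Ddr1 changed by 1.04 and Adgrg1, an adhesion receptor for collagen III, by 0.75. Antxr1, a receptor for collagen VI, had 0.71 and did not pass (SE 0.25, edgeR adjusted p = 0.0559).

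Markers of fibroblasts, smooth muscle, pericytes and endothelium rose in part with PS, and which cells transcribed the collagens was not tested. The 8 markers of resting fibroblasts summed to 2527 to 4180 CPM in ISO+100 nm PS, 2719 to 3324 CPM in ISO+1 µm PS and 1648 to 2939 CPM in ISO hearts, and 3 of 8 rose at 100 nm, 1 at 1 µm and 3 for both PS groups (median log2 fold change for both 0.48). The 8 of activated fibroblasts summed to 158 to 986 CPM in ISO+100 nm PS, 130 to 806 CPM in ISO+1 µm PS and 75.8 to 190 CPM in ISO hearts. Of these, 4 rose at 100 nm, 0 at 1 µm (3 at an unadjusted p under 0.05 by edgeR) and 3 for both PS groups, with medians of 2.16, 1.43 and 1.80. Smooth muscle and pericyte markers summed to 1184 to 1722 CPM in ISO+100 nm PS, 997 to 1826 CPM in ISO+1 µm PS and 605 to 2056 CPM in ISO hearts, and 3 of 8 rose for both PS groups, with a median of 0.30. Endothelial markers summed to 1521 to 2553 CPM in ISO+100 nm PS, 1606 to 2468 CPM in ISO+1 µm PS and 731 to 1837 CPM in ISO hearts, and 2 of 7 rose for both PS groups, with a median of 0.53. Set beside these counts, 3.88% of all genes tested were higher at 100 nm, 2.89% at 1 µm and 6.8% for both PS groups. No marker of any of these 4 lists was at 0 in all libraries of a group. Their part in the collagen changes was not tested.

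Other tissue that a heart dissection can include was checked by its markers, with values for both PS groups by edgeR unless a size is named. The share of all genes tested that rose was 6.8% for both PS groups and 3.88% at 100 nm. Mesothelial and epicardial markers summed to 23.6 to 174 CPM in ISO+100 nm PS, 13.9 to 94.9 CPM in ISO+1 µm PS and 3.48 to 145 CPM in ISO hearts. Of these 1 of 8 rose, and all 8 had a positive value, with a median log2 fold change of 1.54, while that of the 8 collagens was 1.22. Valve, cartilage and tendon markers summed to 9.06 to 35.4 CPM in ISO+100 nm PS, 10.2 to 26.6 CPM in ISO+1 µm PS and 1.08 to 19.2 CPM in ISO hearts. Of the 4 tested 0 passed and 1 had an unadjusted p under 0.05, with a median of 0.83, and the tendon gene Tnmd was at 0 in all ISO libraries. Atrial markers summed to 327 to 3451 CPM in ISO+100 nm PS, 222 to 918 CPM in ISO+1 µm PS and 100.2 to 916 CPM in ISO hearts, and of the 3 tested 1 rose at 100 nm (2 at an unadjusted p under 0.05, median log2 fold change 4.84). At 1 µm (median 0.48) and for both PS groups (2.35) 0 passed, with 0 at an unadjusted p under 0.05. Schwann cell markers summed to 7.87 to 24.2 CPM in ISO+100 nm PS, 5.38 to 21.1 CPM in ISO+1 µm PS and 2.55 to 12.2 CPM in ISO hearts, and 1 of 4 rose, with a median of 1.02.

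No tested marker of macrophages, adipocytes, skeletal muscle or cardiac myocytes passed as higher for both PS groups by edgeR. Macrophage markers summed to 174 to 326 CPM in ISO+100 nm PS, 212 to 307 CPM in ISO+1 µm PS and 154 to 612 CPM in ISO hearts, and 0 of 6 passed for both PS groups, with 2 at an unadjusted p under 0.05. The 1 adipocyte marker tested did not pass, and the list summed to 0.195 to 69.2 CPM in ISO+100 nm PS, 0.323 to 2.68 CPM in ISO+1 µm PS and 0 to 2.02 CPM in ISO hearts. Skeletal muscle markers summed to 1.36 to 3.56 CPM in ISO+100 nm PS, 1.23 to 3.14 CPM in ISO+1 µm PS and 0.614 to 108 CPM in ISO hearts. The medians of these sums were 2.00, 1.93 and 2.86 CPM in the same order. Both skeletal muscle markers tested fell for both PS groups, as did 1595 of all 14623 genes tested, and Myh4 was at 0 in all ISO+100 nm PS libraries. Of 6 cardiac myocyte markers 0 passed, with 3 at an unadjusted p under 0.05. The part of these cells in the collagen changes was not tested.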

How the data were processed

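Poly(A) RNA of 18 hearts was sequenced in pairs of reads by 2 providers, taken as batches, per the labels' protocols. The deposited table of batch 1 holds raw counts per gene under Entrez numbers (46548 entries), and 215 entries without a name, with 0.16% to 0.388% of a library's counts, were left out. The deposited table of batch 2 holds estimated counts under Ensembl IDs (57010 entries), of which 19.6% of nonzero values are not whole. They were rounded, and those of the 8 collagens were whole. As tools, DESeq2, featureCounts 1.5.0-p3, StringTie 1.3.3b, HISAT2 2.0.5 and fastp are named, with the builds GRCm39 and mm39, per the submitters' processing notes. What each was used for, the strand setting and the handling of multiply mapped reads are not given in those notes or labels.

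The tables were joined on 35560 genes, 22146 through the Entrez links of GENCODE M21 and 13414 by an identical symbol. Joined genes hold 98.9% to 99.5% of the counts in batch 1 and, in batch 2, 93.1% to 95.8% in PS and 85.2% to 87.4% in ISO libraries. Counts were scaled by TMM and tested in R 4.3.3 with the quasi-likelihood test of edgeR 4.0.16 (filterByExpr with a minimum count of 10, robust fit, group and batch as terms, 14 residual degrees of freedom), with Benjamini-Hochberg adjustment over 14623 genes and 0.05 as the threshold. The SE was derived from the log2 fold change and its F statistic (F is the squared ratio of change to SE). The script was tested on simulated data. CPM use the TMM-scaled library size, log2 CPM a prior count of 2, and levels per kb the longest GENCODE M21 transcript. Ratios added 0.5 CPM to each gene before the length was divided out. Alternatives were upper-quartile or RLE scaling, a filter of 1 CPM in 6 libraries or none, DESeq2 1.42.0, voom of limma 3.58.1 with quality weights, a GC correction (spline with 5 degrees of freedom), a model without batch, with a replicate block or over fewer libraries, and an adjusted p under 0.1. No pair among 23 compared looked like a duplicate (lowest chi-square per gene 13.1).

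All 8 collagens are described. Up to 4 genes per related list, those with the smallest p for both PS groups, are named, and for cell markers the counts, sums and genes at 0. The 8 collagens, the lists and the tests were chosen with earlier results of these data known.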

Additional observations from a re-analysis of the deposited data

Results flagged for a closer look

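Among 36 groups of 6 values tested for a library that stands apart (8 genes and 4 ratios in 3 groups), 1 met the limit. Col8a2 in ISO+1 µm PS replicate 1 had 12.1 CPM, against 0.579 to 4.10 CPM in the other libraries of that group, with a gap of 0.694 of the group's range. Chance alone places about 1 in 20 such groups past the limit. The same library had the highest level of all 8 collagens in its group, and without it the log2 fold change of Col8a2 for 1 µm PS against ISO was 1.29.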

How the results depend on the processing

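Of 264 repeats of the 8 log2 fold changes at 100 nm, 185 kept direction and call, 76 lost the call and 3 gained one. At 1 µm 222 of 264 did, 30 lost the call and 11 gained one, and for both PS groups 183 of 256 did and 72 lost it. For 1 µm against 100 nm PS all 264 kept direction and call, with 0 of the 8 passing. Members passing at 100 nm, at 1 µm and for both PS groups, 6, 2 and 7 as reported, are given here with the share of all genes called higher, which was 3.88%, 2.89% and 6.8%. They were 3, 2 and 2 with limma voom (4.91%, 4.75% and 5.94%), 0, 0 and 4 without a batch term (0.0%, 0.0% and 1.76%), 2, 2 and 3 in batch 1 alone (3.01%, 1.7% and 4.74%) and 0, 0 and 0 in batch 2 alone (0.0348%, 0.0418% and 0.306%). With the GC correction they were 0, 0 and 3 (0.0%, 0.00684% and 1.21%), with it and without ISO replicate 2 0, 0 and 0 (0.0135%, 0.00675% and 0.25%), and without ISO replicates 1 and 2 1, 0 and 3 (1.37%, 2.1% and 3.61%). At 1 µm the count was 5 with DESeq2 (6.57%) or an adjusted p under 0.1 (6.61%), 1 without a filter (0.809%) and 0 with only the groups compared (0.0%). Over all alternatives, leaving out 1 library by itself apart, the median log2 fold change of the 8 ran from 0.90 to 1.67 at 100 nm, from 0.52 to 1.44 at 1 µm and from 0.78 to 1.56 for both. Leaving out each library gave 1 to 7, 0 to 3 and 4 to 7. The cause was not tested. Same-numbered libraries did not deviate together (correlations of -0.44 to 0.23, over 0.1 in 3 of 18 pairs), and with the replicate number as a block 0, 0 and 1 passed (0.0%, 0.0% and 1.49% of all genes), with medians of 1.52, 1.14 and 1.33.

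The batch-by-PS term passed for 1 member in place of 0 (0.328% of all genes) with DESeq2 (6.61%), an adjusted p under 0.1 (3.97%) or the GC correction with or without ISO replicate 2 (6.44% and 24.2%). It also passed for 1 member without ISO replicate 2 (19.7% of all genes) or 3 (5.39%), and for 0 to 1 over all libraries left out. Its sign turned for Col6a1 (0.35 with limma voom, 0.089 and 0.51 with the GC correction with and without ISO replicate 2, 0.37 without ISO replicates 1 and 2, -0.57 to 0.28 with 1 library left out), Col6a2 (0.20, 0.24 with the GC correction without ISO replicate 2, 0.28 and -0.80 to 0.070) and Col6a3 (0.37, 0.19 and 0.57, 0.23 and -0.42 to 0.39). Single libraries that turned it were ISO replicate 2 (0.28, 0.070 and 0.39 for Col6a1, Col6a2 and Col6a3), ISO replicate 5 (0.0096 for Col6a1, 0.055 for Col6a3) and, for Col6a3, ISO replicate 6 (0.16), ISO+100 nm PS replicate 4 (0.012) and ISO+1 µm PS replicates 1 (0.15) and 6 (0.067). Col8a1 turned to -0.40 at 1 µm and -0.089 for both PS groups in batch 2 alone.

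Of the ratios, Col6a3 to Col6a1 lost its call in batch 1 alone (-0.38), in batch 2 alone (-0.10) and without ISO replicates 1 and 2 (-0.056), and ranged from -0.35 to -0.17 with 1 library left out. Col8a2 to Col8a1 lost it in batch 1 alone (1.29), batch 2 alone (1.17), without ISO replicates 1 and 2 (1.04) and with 2 CPM added (0.54), and ranged from 1.12 to 1.36. Col6a2 to Col6a1 ranged from 0.057 to 0.21, and Col12a1 to Col14a1 turned to -0.16 with 2 CPM added. Depth limits Col8a2 and Col12a1, each with 0 counts in ISO replicate 2. In batch 2 alone the exact permutation test of a ratio cannot go below p = 0.1.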
